A study of Arabidopsis thaliana with 20 samples.

Results

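The transcripts described here are those counted on the mitochondrial genome of *Arabidopsis thaliana*, taken as every row of the count files whose gene ID starts with ATMG. There were 152 such rows among the 37184 rows of each file. The rule reads the IDs and no measured value. The study asked what the long non-coding RNA *MUSHER*, transcribed next to the seed dormancy gene *DOG1*, does in maturing seeds. It compared a T-DNA insertion line in *MUSHER*, *msh-1*, with the Col-0 wild type (WT) by 3′RNA-seq, and each genotype has 4 libraries, which the study treats as biological replicates. *msh-1* was made in Col-0 and is homozygous, so the insertion is the only stated difference. The name should not be confused with *MSH1*, a nuclear gene for the upkeep of organelle genomes. All plants grew on soil in a greenhouse with 16 h of light at 22 °C and 8 h of dark at 18 °C. The labels give the tissue as siliques, the seed-bearing fruits, between 13 and 20 days after pollination, whereas the study's text speaks of freshly harvested seeds. The insertion line is a single allele, and each library is a bulk sample, in which fewer mitochondria-rich cells and less mitochondrial RNA per cell cannot be told apart.

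Plant mitochondria keep a small genome of their own. It encodes the ribosomal RNAs and some proteins of the mitochondrial ribosome, a set of transfer RNAs, core subunits of the respiratory chain complexes and of the ATP synthase, and proteins that attach haem to cytochrome *c*. It also encodes a maturase and a transport membrane protein. Most other mitochondrial proteins are encoded in the nucleus and imported. Poly(A) tails on plant mitochondrial RNAs are short-lived and mark the RNA for degradation, unlike the tails of nuclear messenger RNAs. In 3′RNA-seq the complementary DNA is primed from a stretch of A bases, so a count on an ATMG row can come from a tailed RNA end or from an A-rich stretch inside an RNA, which these counts do not tell apart. The counts are not corrected for length, so each row is best compared with itself across libraries. *Arabidopsis* also carries a large insertion of mitochondrial DNA in nuclear chromosome 2, whose letters are close to those of the organelle.

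The libraries held between 959004 and 6500907 counts, and the *msh-1* libraries were all deeper than the WT libraries. The label check on known targets followed the genotypes, with *DOG1* at 22.0 ± 0.663 CPM (counts scaled to 1000000 per library) in *msh-1* and 41.2 ± 5.51 CPM in WT (SD, n = 4 each). *PIR1* (AT2G35330), an E3 ligase gene, had 2, 0, 0 and 0 counts in the *msh-1* libraries, against 14, 23, 30 and 8 in the WT libraries. *MUSHER* has no row of its own in these tables. Seed tissue was evident in every library, since 9 seed storage genes held 5.30% to 5.96% of the counts in *msh-1* and 4.74% to 6.28% in WT. A list of 12 green tissue genes held 0.00546% to 0.0201% in *msh-1* and 0.0025% to 0.0113% in WT, with none of the 12 at 0 in all libraries. The log2 fold change for *msh-1* over WT was positive for all 8 tested green tissue genes, against 47.9% of all tested genes. Its median was 0.47. In 2 of the 8 the groups did not overlap, against 4.76% of all tested genes. *CAB3*, which was not tested, did not overlap either. None of the 8 was called by edgeR, against 0.413% of all tested genes. DESeq2 called 2 of the 12, and 89 genes over the whole table, in which 23032 rows had a count. The green tissue and storage lists were chosen with earlier results of these data known. Among the storage genes *SESA4*, for a 2S albumin, was called lower by edgeR, at 798 ± 142 CPM in *msh-1* and 1332 ± 280 CPM in WT (SD, n = 4 each; adjusted p = 0.0454). The part of these shifts in the values below was not tested.

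Mitochondrial genome rows took a small and variable part of each library, and that part did not separate the genotypes. They held 0.593%, 0.917%, 0.742% and 0.642% of the counts in *msh-1* libraries 1 to 4, against 0.876%, 0.577%, 0.625% and 0.514% in WT libraries 1 to 4. The highest library of each genotype, *msh-1* 2 and WT 1, lay close together, and the ranges overlapped. The mean was 0.723% ± 0.143 in *msh-1* and 0.648% ± 0.159 in WT (SD, n = 4 each), a difference of 0.0753 percentage points that is smaller than either SD. The 95% Wilson intervals of the single libraries reached only 0.0059 to 0.0158 percentage points to either side. The spread between libraries of one genotype was far wider than these intervals. They cover binomial counting error only, and would be too narrow if copies of one molecule were not collapsed, which is not stated. The difference rested on single libraries, being 0.0109 percentage points without *msh-1* 2 and 0.151 without WT 1. Rows of the chloroplast genome, with IDs starting ATCG, held 0.344% to 0.441% in *msh-1* and 0.307% to 0.382% in WT, and these ranges overlapped as well. The ATMG rows outnumbered the ATCG rows in counts in every library, by 1.63 to 2.08 times in *msh-1* and 1.37 to 2.29 times in WT.

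**Figure D1:**
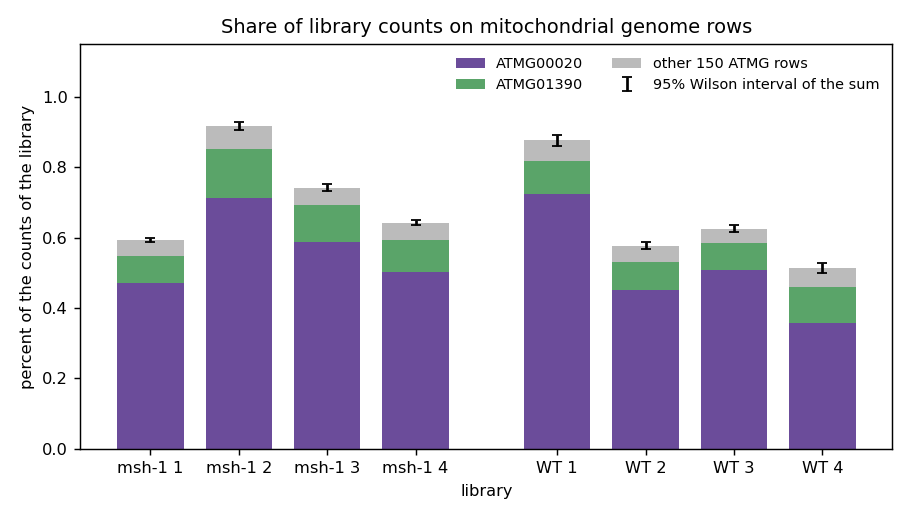
Percent of each library's counts on ATMG rows, stacked as ATMG00020, ATMG01390 and the other 150 rows, for the 4 *msh-1* and the 4 WT libraries; error bars are 95% Wilson intervals of the sum. ATMG00020 makes up most of every bar, and the tallest bar of *msh-1* (0.917%) and that of WT (0.876%) stand well above the lowest ones (0.593% and 0.514%).

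A pair of rows carried nearly all of this signal. ATMG00020 held 125600 of the 158896 ATMG counts over the 8 libraries and ATMG01390 held 21518, which is 92.6% together. The first 10 rows held 98.2%. By mean CPM over the 8 libraries ATMG00020 stood at rank 28 of all rows of the table, ATMG01390 at rank 119 and ATMG01360, the next one, at rank 732. The reference annotation used here does not pair these IDs with gene names, so most are given as IDs without a role. The gene classes written down for this work place ATMG00020, ATMG01390 and ATMG01380 among the mitochondrial ribosomal RNAs. That placement was not checked against an annotation here. Within the ATMG counts ATMG00020 took 79.7%, 77.9%, 79.3% and 78.3% in *msh-1*, against 82.5%, 78.1%, 81.3% and 69.7% in WT. The *msh-1* libraries were nearly alike in this respect, and WT 4, the shallowest library, fell below all others. ATMG01390 took 12.5% to 15.1% of the ATMG counts in *msh-1* and 10.8% to 20.0% in WT, with WT 4 at the top. There were 6.37, 5.16, 5.72 and 5.63 counts on ATMG00020 for each count on ATMG01390 in *msh-1*, against 7.67, 5.54, 6.67 and 3.49 in WT.

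The remaining rows were thinly covered. Of the 152 rows, 60 had a count in at least 1 library and 92 had none, which allows up to 0.182 CPM over the *msh-1* libraries and 0.418 CPM over the WT libraries (3 counts of each genotype's total). Counts in every library were seen for 30 rows, 33 rows reached 10 counts in sum, and 27 rows had between 1 and 9. The 150 rows other than ATMG00020 and ATMG01390 held 0.0463% to 0.0647% of the library in *msh-1* and 0.0405% to 0.0594% in WT. Rows with a count numbered 49, 46, 41 and 41 in *msh-1*, against 36, 37, 39 and 35 in WT. These ranges did not overlap, but neither did the depths, and after thinning every library to 959004 counts the numbers were 32, 37, 29 and 33 in *msh-1* and 35, 30, 31 and 35 in WT, which overlap. The 27 rows with 1 to 9 counts summed to 70 counts in *msh-1* and 19 in WT, which is 4.25 and 2.65 per 1000000 counts of each genotype. Of these, ATMG01410 had 6 counts spread over all 4 *msh-1* libraries and none in WT, and ATMG00570 had 5 in all 4 and none in WT. Both were named after their values were seen, and both lie below the 0.418 CPM that no count in WT allows.

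The letters of the mitochondrial genome are to a large extent repeated in the nucleus, which bears on what these rows can show. Cut into overlapping windows of 50 bases, the mitochondrial genome of the TAIR10.1 assembly (367808 bases) had 70.6% of its windows in identical form on a nuclear chromosome on either strand. Nearly all of them were on chromosome 2, which held 70.4%, and the chloroplast genome held 0.319%. Of 32 protein-coding genes named in the RefSeq annotation of the mitochondrial genome, 15 had every coding window repeated in the nucleus and 21 had more than 90% repeated. Among those repeated in full were *cob* for apocytochrome b of complex III, *cox3* for a subunit of cytochrome c oxidase, and *atp1* for the alpha subunit of the ATP synthase. The 5 coding genes with no repeated window were *atp4*, *ccmB*, *cox1*, *nad4L* and *nad9*. The 3 ribosomal RNA genes were also nearly free of repeats, with 0% for *rrn26* and *rrn5* and 0.371% for *rrn18*.

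**Figure D2:**
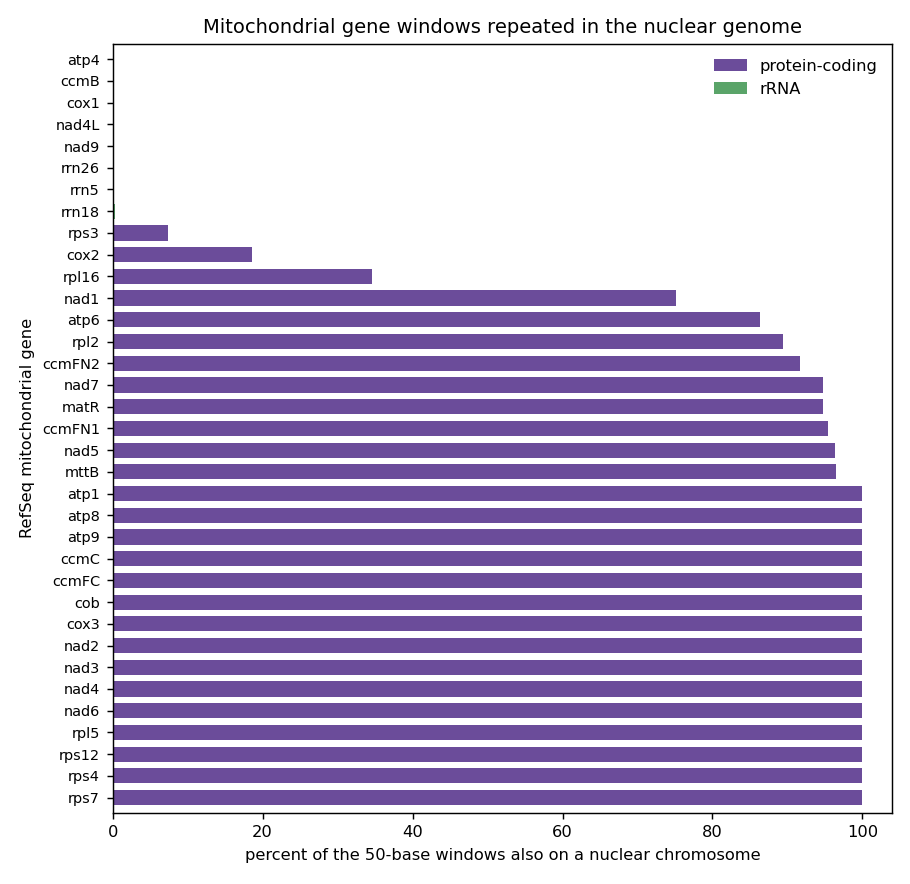
Percent of the 50-base windows of each named mitochondrial gene (RefSeq, TAIR10.1) that also occur on a nuclear chromosome; bars in one colour are protein-coding genes and in the other ribosomal RNA genes, and names without a visible bar are at or near 0%. The ribosomal RNA genes and 5 coding genes sit at the bottom of the scale, and 15 coding genes are at 100%.

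The primer pair with which the study followed a mitochondrial RNA by RT-qPCR, for *NAD5* (a subunit of complex I), shows the repetition in a short form. It is printed because both primers occur letter for letter in both genomes, written 5′ to 3′ in lower case.
NAD5 forward: catcactacggtcgggctat
NAD5 reverse: cgggagctagtgcttgctat
In TAIR10.1 the forward primer matched the minus strand of the mitochondrial genome at bases 235418 to 235437 and the reverse primer the plus strand at bases 234506 to 234525, in different coding segments of *nad5*. On chromosome 2 the forward primer matched the plus strand at bases 3398349 to 3398368 and the reverse primer the minus strand at bases 3399261 to 3399280. No other identical match was found in the nuclear or organelle genomes.

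Rows that RefSeq notes tie to a nuclear copy were nearly without counts. The RefSeq notes of nuclear genes name 53 of the 152 ATMG IDs as the best match or the parent of a nuclear gene, and all of those nuclear genes lie on chromosome 2. These 53 rows held 144 counts, 0.0906% of the ATMG counts, and 37 of them had none. The other 99 rows held the rest, most of it on ATMG00020 and ATMG01390, and 55 of them had none. Repeated windows were not scored by ATMG row, so some of these 99 may have a nuclear copy too. For 13 of the 53 the product in the note was matched to a gene of the mitochondrial genome, and these 13 rows had 31 counts in all. The matching was not complete, since ATMG01090, noted as ATP synthase 9, was left out with 17 counts. ATMG00220, apocytochrome b, had 1 count, and ATMG00730, cytochrome c oxidase subunit 3, and ATMG01190, ATP synthase subunit 1, had none. ATMG01320, NADH dehydrogenase 2B, was the highest of the 13 with 27 counts, although every window of *nad2* is repeated in the nucleus.

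The nuclear copies did not take up many counts either. The 55 nuclear rows whose notes name an ATMG ID held 339 counts over the 8 libraries. The 189 rows from AT2G07600 to AT2G07850, an ID range taken to span the insertion, held 731 counts. Not every row of this range carries such a note. The range held 0.00279% to 0.00357% of the library in *msh-1* and 0.00227% to 0.00358% in WT. In 55 pairs of an ATMG row and the nuclear row whose note names it, both were at 0 in 28 pairs, the nuclear row was higher in 16 and the ATMG row in 11. AT2G07727, the nuclear copy of apocytochrome b, had 114 counts beside 1 on ATMG00220. AT2G07698, the copy of ATP synthase subunit 1, had 112 beside 0 on ATMG01190. The sources used here do not state how reads that fit several places were counted, and its part in these low counts was not tested.

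Of the 152 rows, 21 passed the filter on low counts and entered the test across all genes, and none was called between the genotypes. The test was edgeR's quasi-likelihood test on 10902 genes, and a call needed a Benjamini-Hochberg adjusted p below 0.05 together with more than 1.5-fold change. It called 45 genes, which is 0.413% of those tested. An unadjusted edgeR p under 0.05 was reached by 2 of the 21 ATMG rows, against 8.48% of all tested genes. DESeq2, which fitted 60 ATMG rows, also called none of them and gave 2 with an unadjusted p under 0.05. The matching share over all genes is not given for DESeq2. On the log2 scale, estimates for *msh-1* over WT lay between -0.40 and 0.65 with a median of 0.10, against a median of -0.01 for all tested genes. The estimate was positive for 15 of the 21 rows and negative for 6, against 47.9% positive among all tested genes. The rows share libraries and are not independent, and the median was -0.02 without *msh-1* 2.

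**Figure D3:**
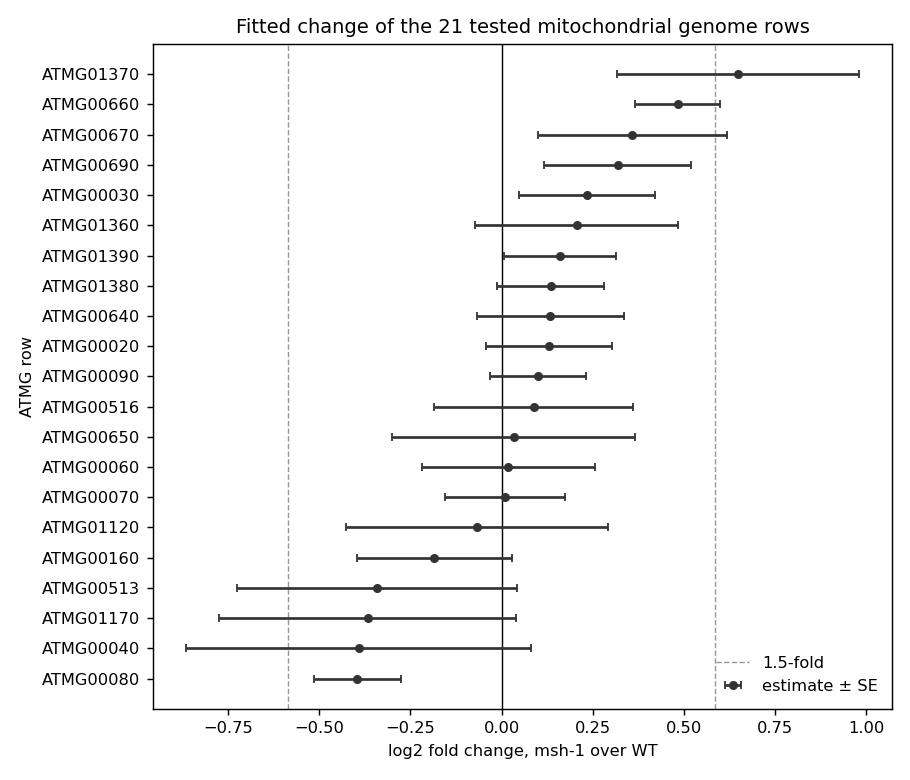
Fitted log2 fold change of *msh-1* over WT for the 21 tested ATMG rows, ordered by estimate, with bars of 1 standard error (SE); dashed lines mark 1.5-fold in either direction. Only ATMG01370 at 0.65 lies beyond a dashed line, and ATMG00660 and ATMG00080 have the narrowest bars among the rows farthest from 0.

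ATMG00020 had 4872, 6990.1, 5728 and 4937 CPM in the *msh-1* libraries, against 7387, 4442, 5029 and 3721 CPM in the WT libraries, on library sizes scaled by TMM (trimmed mean of M-values). The highest and the lowest value both belonged to WT, and the *msh-1* values lay between them. The mean was 5632 ± 986 CPM in *msh-1* and 5145 ± 1588 CPM in WT (SD, n = 4 each). The fitted log2 fold change was 0.13 ± 0.17 (SE), with an edgeR adjusted p of 0.897. This estimate was 0.0042 without WT 4 and 0.36 without WT 1, and it was not called in either case.

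ATMG01390 had 764, 1354, 1002 and 877 CPM in *msh-1*, against 963, 802, 754 and 1067 CPM in WT. The groups overlapped, and *msh-1* 2 was again the highest of its genotype. Its log2 fold change was 0.16 ± 0.15 (SE), with an edgeR adjusted p of 0.837. ATMG01380 was far lower, at 25.2, 33.6, 24.8 and 25.0 CPM in *msh-1* and 27.4, 26.5, 21.4 and 22.7 CPM in WT, and its log2 fold change was 0.13 ± 0.15 (SE; edgeR adjusted p = 0.859). Apart from *msh-1* 2, its values stayed within a narrow band in both genotypes.

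ATMG01360, the next row by counts, had 106, 195, 83.2 and 106 CPM in *msh-1*, against 173, 101, 64.9 and 89.9 CPM in WT. Here, too, *msh-1* 2 and WT 1 stood above the other libraries of their genotype, the same libraries that had the largest share of ATMG counts. ATMG00090 behaved more evenly, with 80.0, 92.6, 107 and 112 CPM in *msh-1* and 93.7, 90.2, 75.6 and 112 CPM in WT. ATMG00640 had 39.3, 39.3, 51.4 and 30.7 CPM in *msh-1*, against 51.0, 25.6, 32.1 and 44.4 CPM in WT. For none of these rows did the groups separate, and their log2 fold changes were 0.21 ± 0.28, 0.10 ± 0.13 and 0.13 ± 0.20 (SE).

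Over the 21 tested rows, *msh-1* 2 was the highest *msh-1* library for 15, and the other *msh-1* libraries for 2 each. In WT the highest library was WT 4 for 11 rows and WT 1 for 10, and WT 2 and WT 3 for none. WT 4 was thus often the highest in WT, although its share of ATMG counts was the lowest of the 8 libraries.

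**Figure D4:**
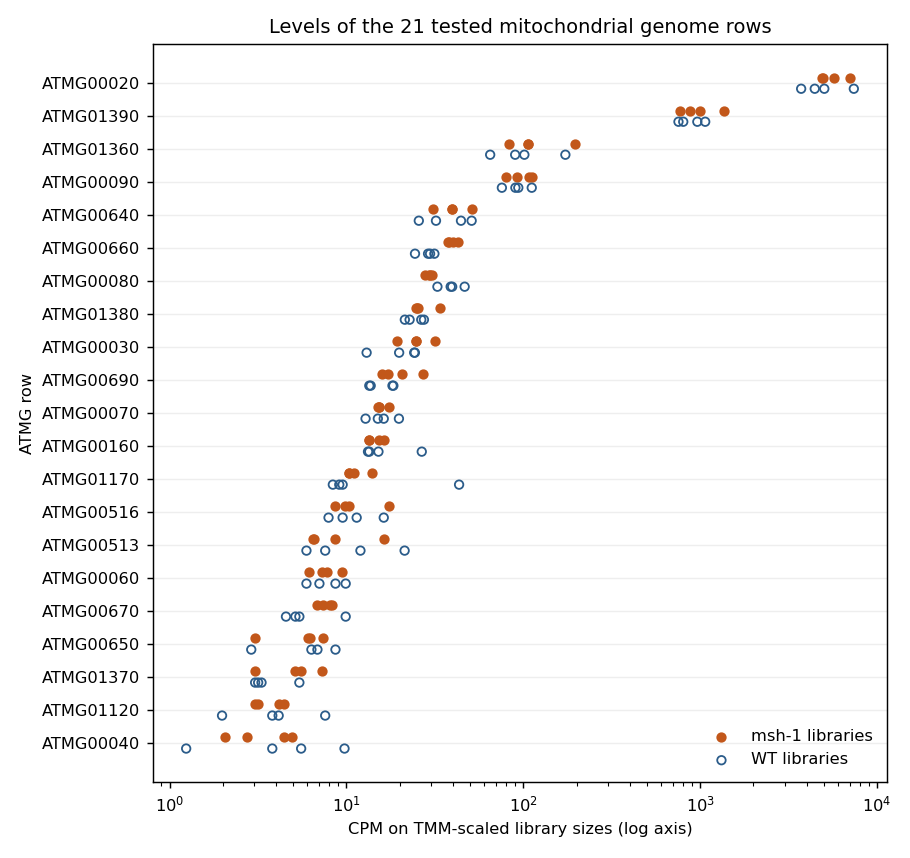
CPM of each of the 21 tested ATMG rows in every library, on a log axis, with *msh-1* libraries as filled points above the WT libraries as open points of the same row. The levels run over more than 3 orders of magnitude with ATMG00020 at the top, and the points of the genotypes interleave in all rows but ATMG00660 and ATMG00080.

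The genotypes did not overlap in 2 of the 21 rows, ATMG00660 and ATMG00080, against 4.76% of all tested genes (2.56% with *msh-1* higher and 2.2% with *msh-1* lower). ATMG00660 had 40.0, 42.7, 37.3 and 37.9 CPM in *msh-1*, against 28.9, 24.4, 29.7 and 31.4 CPM in WT. Every *msh-1* library lay above every WT library, and neither *msh-1* 2 nor WT 1 stood apart as they did in ATMG01360. The mean was 39.5 ± 2.45 CPM in *msh-1* and 28.6 ± 2.99 CPM in WT (SD, n = 4 each). The log2 fold change was 0.48 ± 0.12 (SE), under the 1.5-fold threshold, with an unadjusted edgeR p of 0.000959 and an adjusted p of 0.126. An exact permutation test of the log2(CPM + 0.5) means, two-sided, gave 0.0286, the smallest p that 4 against 4 libraries allow. It was 0.600 after adjustment over all tested genes. Groups that do not overlap always give this p, so it adds nothing to the separation itself. Over the other settings of the fit, the adjusted p of ATMG00660 ranged from 0.0266 to 0.745, and the fold change stayed below 1.5 in each.

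ATMG00080 went the other way, with 30.5, 29.1, 29.7 and 27.9 CPM in *msh-1* and 38.8, 32.7, 39.6 and 46.6 CPM in WT. All *msh-1* values lay close together and below the lowest WT value. The mean was 29.3 ± 1.09 CPM in *msh-1* and 39.4 ± 5.69 CPM in WT (SD, n = 4 each). The fit gave -0.40 ± 0.12 (SE) on the log2 scale. The edgeR p was 0.00515 before and 0.264 after adjustment. The exact permutation p was again 0.0286, or 0.600 adjusted, as it must be for groups that do not overlap. Its adjusted edgeR p lay between 0.183 and 0.855 over the other settings.

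ATMG01170 differed in spread rather than between genotypes. It had 10.3, 14.0, 10.4 and 11.0 CPM in *msh-1*, against 8.38, 9.51, 9.11 and 43.3 CPM in WT. WT 4 alone stood apart, with 40 counts in the shallowest library, while all other libraries lay within a narrow range. The row made up 0.812% of the ATMG counts of WT 4, against 0.144% to 0.174% in the *msh-1* libraries and 0.0935% to 0.167% in the other WT libraries. The log2 fold change was -0.37 ± 0.41 (SE; edgeR adjusted p = 0.866) with all libraries and 0.31 without WT 4 (edgeR adjusted p = 0.684), so its direction rested on that library.

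**Figure D5:**
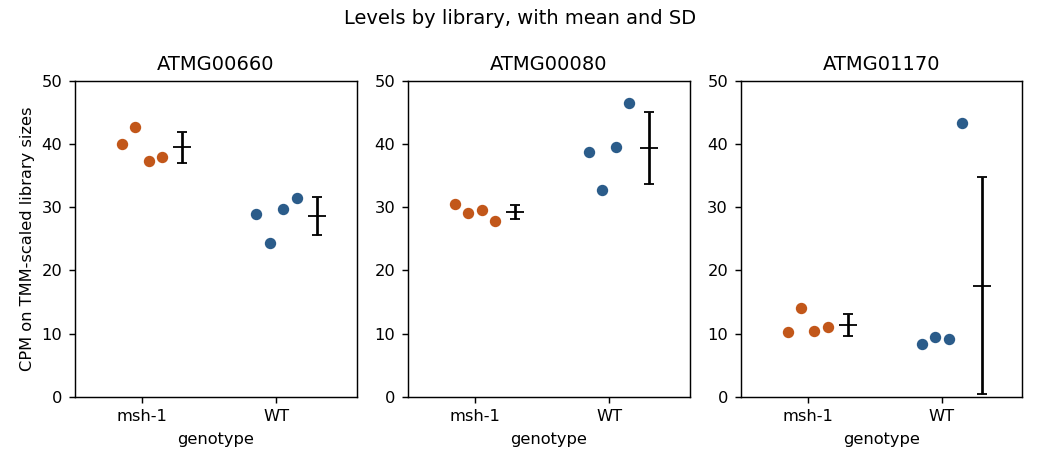
CPM of ATMG00660, ATMG00080 and ATMG01170 in each *msh-1* and WT library (points), with the mean and SD of the 4 libraries beside them. The genotypes separate in the first 2 panels, with means of 39.5 and 28.6 CPM for ATMG00660 and of 29.3 and 39.4 CPM for ATMG00080, and in the ATMG01170 panel a single WT library at 43.3 CPM lies far from the rest.

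The other 12 tested rows lay between 1.24 and 31.8 CPM in single libraries, and their groups overlapped. ATMG00030 had 24.6, 31.8, 24.8 and 19.4 CPM in *msh-1* and 24.4, 19.9, 24.2 and 13.0 CPM in WT. ATMG00690 had 17.1, 27.2, 20.5 and 15.9 CPM in *msh-1* and 13.7, 18.2, 13.5 and 18.4 CPM in WT. Both were highest in *msh-1* 2, and their log2 fold changes were 0.23 ± 0.19 and 0.32 ± 0.20 (SE). ATMG00160 had 13.3, 16.3, 13.5 and 15.2 CPM in *msh-1*, against 26.7, 13.2, 13.5 and 15.2 CPM in WT, where WT 1 stood above all other libraries. ATMG00070 had 15.1, 17.4, 15.3 and 15.2 CPM in *msh-1* and 19.8, 12.8, 15.0 and 16.2 CPM in WT. ATMG00513 spread widely in both genotypes, with 6.50, 16.3, 8.56 and 6.55 CPM in *msh-1* and 5.94 to 21.3 CPM in WT, and *msh-1* 2 and WT 1 were its highest libraries too.

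ATMG01370 had the largest estimate, a log2 fold change of 0.65 ± 0.33 (SE; edgeR adjusted p = 0.633). It had 7.30, 3.02, 5.50 and 5.15 CPM in *msh-1*, against 3.05, 3.31, 3.17 and 5.42 CPM in WT. The groups overlapped through *msh-1* 2, which was its lowest library, and WT 4. The remaining 6 tested rows, ATMG00516, ATMG00060, ATMG00670, ATMG00650, ATMG01120 and ATMG00040, had mean levels of 3.54 to 11.5 CPM in *msh-1* and 4.38 to 11.3 CPM in WT, with log2 fold changes between -0.39 and 0.36 and SEs of 0.24 to 0.47.

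A further 12 rows had at least 10 counts in sum but did not pass the filter, with mean levels of 0.599 to 4.19 CPM in either genotype. In 1 of the 12, ATMG00510, the groups did not overlap. The share of 4.76% covers only genes that passed the filter, and the share among genes that did not pass was not computed. ATMG00510 had 14, 7, 9 and 12 counts in *msh-1* and 2, 5, 5 and 2 in WT. That is 2.22 to 2.81 CPM in *msh-1* and 1.52 to 2.17 CPM in WT. The exact permutation p was 0.0286, the smallest possible, which groups that do not overlap always give. It had no adjustment over genes because the row was not in the fit. DESeq2 gave a log2 fold change of 0.42 with an unadjusted p of 0.466. A difference of this size is close to a single count in the shallower libraries.

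The nuclear genes for mitochondrial proteins, which supply most of each respiratory complex, were read from the same fit. Of 57 genes on 6 lists (subunits of complexes I to IV, cytochrome *c*, ATP synthase, and the alternative respiratory enzymes), 48 were tested and none was called by edgeR or DESeq2. Among them 10 had an unadjusted edgeR p under 0.05, against 8.48% of all tested genes. DESeq2 gave 5 over the 57 genes, with no share over all genes to set beside it. Of the 48, edgeR estimates were positive for 12 and negative for 36, against 47.9% positive among all tested genes. The median log2 fold change was -0.06. In 1 of the 48 the groups did not overlap, against 4.76% of all tested genes. The 12 complex I genes of the list, whose products take electrons from NADH, had a median of -0.24, with 9 of 12 negative. An unadjusted edgeR p under 0.05 was reached by 6 of the 12 (3 by DESeq2), against 8.48% of all tested genes by edgeR. Of the 12 genes, the 2 with the most counts were AT5G11770 and *GAMMA CAL2*, for a carbonic anhydrase-like subunit. AT5G11770 was at 144 ± 10.6 CPM in *msh-1* and 155 ± 5.42 CPM in WT (SD, n = 4 each). *GAMMA CAL2* was at 75.7 ± 5.46 CPM in *msh-1* and 70.6 ± 1.12 CPM in WT (SD, n = 4 each). Neither was called, with edgeR adjusted p of 0.789 and 0.815. The lists were chosen with earlier results of these data known, and they may not hold every subunit. Genes of a list share libraries and are not independent, so the shares over all genes are no test of a list.

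The complex II list was led by *SDH2-3*, for the iron-sulphur subunit of succinate dehydrogenase found in seeds, at 386 ± 34.4 CPM in *msh-1* and 389 ± 33.3 CPM in WT. *SDH1-1*, for the flavoprotein subunit, had 54.4 ± 3.83 CPM in *msh-1* and 66.4 ± 10.7 CPM in WT (edgeR adjusted p = 0.408). For complex III AT5G13440 had 166 ± 2.95 CPM in *msh-1* and 171 ± 11.3 CPM in WT, and AT5G25450 had 105 ± 11.4 CPM in *msh-1* and 108 ± 8.54 CPM in WT. For complex IV AT4G37830 had 54.8 ± 2.59 CPM in *msh-1* and 58.6 ± 4.92 CPM in WT, and *COX17*, for a copper chaperone, had 29.7 ± 3.31 CPM in *msh-1* and 29.7 ± 1.84 CPM in WT. The ATP synthase genes AT5G47030 and AT1G51650 had 61.0 ± 3.84 and 56.9 ± 2.15 CPM in *msh-1* and 62.7 ± 4.37 and 59.3 ± 5.11 CPM in WT (SD, n = 4 each for all of these). Medians of the log2 fold change were -0.06, -0.04, -0.02 and -0.04 for complex II, complex III with cytochrome *c*, complex IV and ATP synthase.

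Among the alternative respiratory enzymes, *AOX1A*, for an alternative oxidase that passes electrons to oxygen without pumping protons, had 50.4 ± 12.3 CPM in *msh-1* and 32.9 ± 12.4 CPM in WT (SD, n = 4 each). Its log2 fold change was 0.53, with an edgeR p of 0.0357 before and 0.542 after adjustment, and the groups overlapped. *AOX2* had 34.8 ± 1.96 CPM in *msh-1* and 38.4 ± 4.34 CPM in WT. Of the 6 tested genes of this list, 2 had a positive and 4 a negative estimate, with a median log2 fold change of -0.08. Of 6 nuclear genes for mitochondrial RNA synthesis and turnover, 5 were tested, and none was called or reached an unadjusted p under 0.05 by edgeR or DESeq2. *AHG2*, for a poly(A)-specific ribonuclease that acts on mitochondrial RNAs, had 9.85 ± 1.77 CPM in *msh-1* and 7.12 ± 1.40 CPM in WT (edgeR adjusted p = 0.622). *EMB2730*, for an organelle ribonuclease, had 13.8 ± 1.86 CPM in *msh-1* and 19.1 ± 5.38 CPM in WT (edgeR adjusted p = 0.589).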

How the data were processed

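The 3′RNA-seq libraries were primed with oligo(dT) and aligned by the authors with STAR 2.7.8a to TAIR10. The deposited values are whole-number counts per gene. The study's methods state that the primers carried molecular identifiers, but not whether these were used to collapse copies in the 3′RNA-seq counts. Treatment of strand and of reads with several matches is not given in the sources used here, so overlapping and antisense genes may share counts. The other 12 samples of the series, from chromatin isolation by RNA or DNA purification, were not analysed here. The members and gene lists were chosen with earlier results of these data known.

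Counts were fitted in edgeR 4.0.16 (R 4.3.3) with TMM factors, filterByExpr and the quasi-likelihood test, *msh-1* over WT, and p-values were adjusted by the Benjamini-Hochberg method over all 10902 tested genes. Genes below an adjusted p of 0.05 that changed more than 1.5-fold were called. SEs were derived from the F statistic. Exact two-sided permutation tests over 70 arrangements used log2(CPM + 0.5). Shares were computed on raw totals, with 95% Wilson intervals. The fit was tested on simulated data with changes in either direction. It called 90 of 100 genes changed by 2 on the log2 scale and 63 of 100 changed by 1, with 6 false calls. Changes of the smaller size can thus be missed. Named were all tested ATMG rows, called genes of the nuclear lists and the 2 with the highest mean CPM of each. Untested ATMG rows with at least 10 counts could be named, and those that are, with a few under 10 counts, were chosen after their values were seen. DESeq2 1.42.0, limma 3.58.1, a block for the replicate number, other library sizes and filters, thinning to equal depth, and fits without each library in turn were alternatives. Libraries held 959004 to 6500907 counts. No replicate pair agreed within sampling noise, the closest having a chi-square of 1.47 per gene. Names and notes came from RefSeq for TAIR10.1, in which no ATMG ID is a locus tag.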

Additional observations from a re-analysis of the deposited data

Results flagged for a closer look

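Within a genotype, single libraries far from the other 3 were sought in 58 groups of 4 libraries, covering the shares and the CPM of the 21 tested ATMG rows, and 6 were found. Chance alone gives about 1 in 20 groups. The farthest was ATMG01170 in WT 4 at 43.3 CPM, while the rest of WT lay at 8.38 to 9.51 CPM. ATMG01380 in *msh-1* 2 had 33.6 CPM, while the rest of *msh-1* lay at 24.8 to 25.2 CPM. ATMG00070 in *msh-1* 2 had 17.4 CPM, against 15.1 to 15.3 CPM. ATMG00160 in WT 1 had 26.7 CPM, while the rest of WT lay at 13.2 to 15.2 CPM. ATMG00670 in WT 1 had 9.90 CPM, against 4.55 to 5.42 CPM. ATMG01370 in WT 4 had 5.42 CPM, against 3.05 to 3.31 CPM, a value that rests on 5 counts.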

How the results depend on the processing

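No ATMG row was called under any of the 18 alternatives, although ATMG00660 had an edgeR adjusted p of 0.0266 with no filter on low counts and of 0.0411 without WT 4 and *msh-1* 1, each time with a fold change below 1.5. The number of genes called over the whole table, 45, was 25 without TMM factors, 438 with no filter, 126 with at least 10 counts in sum, 89 with DESeq2, 24 with limma-voom, 280 without WT 4 and *msh-1* 1, 13 at equal depth, and 4 to 210 when each library was left out; the cause was not tested. With the replicate number as a block, 24 genes and no ATMG row were called. Same-numbered libraries had correlations of -0.22, 0.15, 0.06 and -0.09 of their deviations from the genotype means, not every library correlated best with its own number, and the numbers were not taken as pairs. Without ATMG00020, ATMG01390 and ATMG01380 the mean share was 0.0501% in *msh-1* and 0.0470% in WT. Leaving out each library gave mean shares of 0.659% to 0.767% in *msh-1* and 0.572% to 0.693% in WT, and a difference of 0.0109 to 0.151 percentage points.

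None of the following rows was called, but their log2 fold change took the opposite sign in some settings. With the block it was -0.0022 for ATMG00070, -0.014 for ATMG00060 and -0.076 for ATMG00650. Without WT 4 and *msh-1* 1 it was 0.36 for ATMG01170, 0.29 for ATMG01120 and 0.20 for ATMG00040. It was -0.24 for ATMG00070 at equal depth, -0.012 for ATMG00650 with DESeq2 and 0.0064 for ATMG01120 with limma-voom. With each library left out it ranged from -0.019 to 0.28 for ATMG01390, -0.090 to 0.52 for ATMG01360, -0.046 to 0.31 for ATMG00640, -0.10 to 0.12 for ATMG00070, -0.31 to 0.074 for ATMG00160, -0.62 to 0.31 for ATMG01170, -0.13 to 0.24 for ATMG00516, -0.66 to 0.039 for ATMG00513, -0.12 to 0.14 for ATMG00060, -0.27 to 0.19 for ATMG00650 and -0.39 to 0.19 for ATMG01120. The other 9 of the 21 tested rows kept their sign throughout. At equal depth 14 ATMG rows passed the filter. The lowest tested ATMG row had 85 counts in sum.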
